A study of Mus musculus with 12 samples.

Results

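Immediate early genes are switched on within minutes of a stimulus, without new protein synthesis, and their RNAs are short-lived. Fos, Fosb, Jun, Junb and Atf3 encode leucine-zipper proteins that pair into AP-1 and related dimers, Egr1 and Nr4a1 encode a zinc-finger factor and an orphan nuclear receptor, and Dusp1 encodes a phosphatase that turns MAP kinases off again. In neurons these genes follow electrical activity and growth factors, and in sensory neurons Atf3 and Jun also mark injury of the axon. Hspa1a encodes the stress-inducible chaperone HSP70. Since the same genes respond to dissociation and heat, they are also read as a sign of how cells were handled. The 10 genes described here are Fos, Fosb, Jun, Junb, Egr1, Ier2, Atf3, Dusp1, Nr4a1 and Hspa1a. They were chosen by name, with earlier results of these data known. All 10 have a row among the 25674 genes of the count table.

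RNA was measured in spiral ganglion neurons, the cells that connect the cochlea to the brain, from mouse embryos at E14.5. Per the labels, each of the 12 libraries held 100 tdTomato-positive neurons sorted from both inner ears of a single embryo of either sex, on a mixed C57BL/6/sv129 background. The 6 control embryos were Neurod1Cre; Rosa26tdTOM. The 6 embryos labelled ISL1CKO were Neurod1Cre;Isl1loxP/loxP;Rosa26tdTOM, so that Cre, made from a Neurod1 transgene, can delete the LIM homeobox gene Isl1 in neurons. All 12 embryos therefore carried Cre and the reporter, and no group lacked Cre. Ganglia from 4 litters were digested with trypsin at 37 °C for 5 min, and about 3 hours passed from euthanasia to collection. Which embryo came from which litter is not in the labels, so litter cannot be told apart from genotype. The design text has biological replicates where a tag in the labels says technical, and the libraries were treated as separate embryos. P-values measure the spread between these libraries.

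Libraries held 11895603 to 13857480 counts. At this depth 3 counts, taken as the floor, corresponded to 0.219 to 0.250 CPM (CPM are counts scaled to library size after TMM normalization). This floor covers counting error only, whereas the 95% intervals of log2 ratios below include the spread between libraries. Neuron markers were abundant in every library, at a summed 11380 to 14810 CPM over 12 genes. Isl1 itself ran from 1050 to 1589 CPM in the libraries labelled ISL1CKO and from 1171 to 1777 CPM in controls, a log2 ratio of -0.15 (ISL1CKO over control, edgeR adjusted p = 0.460). Whole-gene counts cannot show whether the floxed segment was removed, so each direction below is that of the libraries labelled ISL1CKO. Of the 12 libraries, 3 stood apart: ISL1CKO 2, 3 and 5 held Xist (62.9 to 132 CPM) together with Y-linked transcripts (a mean of 35.7 to 87.3 CPM), and Dusp1 and the list calls are also given without them. The labels give a single embryo per library, which would not usually hold both. No control held both, so this was not balanced between genotypes, and its origin was not tested. Macrophage markers differed most between libraries, from a summed 2.17 to 796 CPM in ISL1CKO and 3.55 to 409 CPM in controls. In bulk samples, fewer cells that express a gene and less RNA per cell cannot be told apart.

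The stretch before the start of transcription is one of the places where the pathways that induce these genes act. It is shown for 5 of them: Jun and Dusp1, which were abundant in these neurons, Junb, which was intermediate, and Fos and Hspa1a, which lay near the floor. Each sequence is the 250 bases before the RefSeq start (GRCm38.p6), 5′ to 3′ in the direction of the gene. Capitals mark matches, on either strand, to TGACG (the core of the cAMP response element), its full form TGACGTCA, TGACATCA (the AP-1 site known from the Jun promoter), TGANTCA (the AP-1 consensus), GAANNTTC (a pair of heat shock element units), TATAAA and the CArG box bound by serum response factor. TGACG lies within TGACGTCA.
Fos (chr12:85473640-85473889, plus strand): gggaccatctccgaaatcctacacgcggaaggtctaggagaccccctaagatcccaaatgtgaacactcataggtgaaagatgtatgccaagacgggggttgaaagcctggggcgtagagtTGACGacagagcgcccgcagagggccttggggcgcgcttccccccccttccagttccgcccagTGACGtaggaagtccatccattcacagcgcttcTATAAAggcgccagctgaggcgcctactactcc
Jun (chr4:95052223-95052472, minus strand): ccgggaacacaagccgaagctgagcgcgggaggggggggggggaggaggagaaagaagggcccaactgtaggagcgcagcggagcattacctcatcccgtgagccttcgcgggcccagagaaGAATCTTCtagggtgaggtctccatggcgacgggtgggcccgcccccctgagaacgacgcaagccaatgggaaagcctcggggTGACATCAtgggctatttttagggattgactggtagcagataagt
Junb (chr8:84978749-84978998, minus strand): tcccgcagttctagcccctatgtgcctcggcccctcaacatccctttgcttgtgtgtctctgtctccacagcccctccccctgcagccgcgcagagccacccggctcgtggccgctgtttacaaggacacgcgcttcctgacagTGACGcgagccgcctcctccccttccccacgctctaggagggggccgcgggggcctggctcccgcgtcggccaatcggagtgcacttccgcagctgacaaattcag
Dusp1 (chr17:26508473-26508722, minus strand): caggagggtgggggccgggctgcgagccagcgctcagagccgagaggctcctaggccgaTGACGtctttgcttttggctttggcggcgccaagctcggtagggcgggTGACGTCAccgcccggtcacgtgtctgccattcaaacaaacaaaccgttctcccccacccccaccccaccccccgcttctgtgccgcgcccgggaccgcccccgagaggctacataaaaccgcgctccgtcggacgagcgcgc
Hspa1a (chr17:34972157-34972406, minus strand): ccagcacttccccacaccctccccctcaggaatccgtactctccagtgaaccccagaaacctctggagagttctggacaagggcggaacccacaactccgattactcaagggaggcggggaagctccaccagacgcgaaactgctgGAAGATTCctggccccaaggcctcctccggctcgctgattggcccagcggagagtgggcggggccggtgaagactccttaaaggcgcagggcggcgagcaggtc
Dusp1 held 1 full TGACGTCA that began 143 bases before its start, a match found in 1.55% of the 32817 promoter windows of this length. TGACG occurred in 17.7% of all windows. Fos had 2 such matches, beginning 129 and 66 bases before its start, Junb had 1 and Dusp1 had 3. Those of Dusp1 at 143 and 140 bases are its single TGACGTCA read on either strand. Among members not printed, Nr4a1 had 4 TGACG matches, and Fosb and Atf3 had 1 each. Jun held TGACATCA, which 2.93% of windows hold, 45 bases before its start. GAANNTTC, in 6.69% of windows, occurred in Jun and Hspa1a. TATAAA, in 12.4% of windows, occurred in Fos. No CArG box (1.47% of windows) and no TGANTCA (6.75%) was matched in the 8 members with a RefSeq window, which says only that these letters are not in this stretch.

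Jun, Ier2 and Dusp1 were expressed at high levels in every library, whereas Fos, Fosb, Atf3, Egr1 and Hspa1a were near the limit of detection in many. Averaged over all 12 libraries and divided by exon length, Jun stood at 64.4 CPM per kilobase, Ier2 at 47.6 and Dusp1 at 44.3. Junb followed at 4.35 CPM per kilobase and Nr4a1 at 1.10. Atf3 (0.672), Egr1 (0.486), Fos (0.329), Hspa1a (0.152) and Fosb (0.0148 CPM per kilobase) came last. The ranges of neighbours in this order overlapped over the 12 libraries at each step but that from Dusp1 to Junb, where Dusp1 was higher in 12 of 12 libraries. Jun exceeded Fos 196-fold per kilobase. By the average log2 CPM that edgeR computes, Jun lay above 93.5% of all tested genes, Dusp1 above 89.7%, Ier2 above 77.0%, Junb above 36.7% and Nr4a1 above 22.8%.

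**Figure D1:**
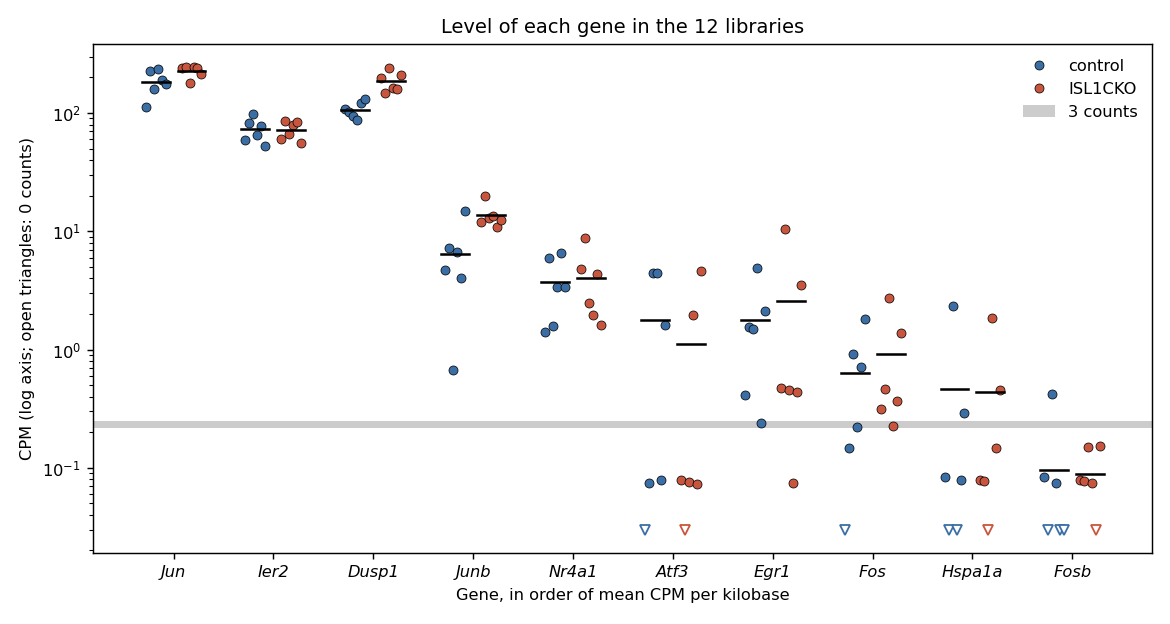
Level of the 10 genes in each library, in CPM on a log axis, for 6 control (blue) and 6 ISL1CKO (red) libraries. Points are libraries, black bars are group means, the grey band is the level of 3 counts (0.219 to 0.250 CPM) and open triangles are libraries with 0 counts. Jun, Ier2 and Dusp1 lie above 50 CPM in all 12 libraries, and only for Dusp1 do the groups not overlap.

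Of the 10 genes, 6 had enough counts to be tested (Jun, Junb, Egr1, Ier2, Dusp1 and Nr4a1). Fos, Fosb, Atf3 and Hspa1a did not pass the filter on low counts. Dusp1 alone passed the threshold, higher in ISL1CKO. Across all 14813 tested genes, 10.2% passed in either direction, 5.01% higher and 5.19% lower, so 1 of 6 is not far from the background.

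Dusp1 (ENSMUSG00000024190, chromosome 17, 26505590 to 26562128, minus strand), the phosphatase that dampens ERK, JNK and p38 signalling, rose 1.74-fold. Its lowest, median and highest values were 86.7, 105 and 131 CPM in controls and 149, 179 and 239 CPM in ISL1CKO. All 6 ISL1CKO libraries lay above all 6 controls, a separation found for 6.78% of tested genes (3.13% higher and 3.65% lower). Group means came to 107 ± 16.6 and 186 ± 35.4 CPM (SD, n = 6), a log2 ratio (fold change on the log2 scale) of 0.80 with a standard error (SE) of 0.13 (quasi-likelihood test of edgeR, p adjusted by Benjamini-Hochberg, adjusted p = 0.00108). Leaving out each library in turn gave 0.71 to 0.86. Without ISL1CKO 2, 3 and 5 it was 0.82 (edgeR adjusted p = 0.00628). With the levels of macrophage and Schwann cell markers in the model it was 0.85 (edgeR adjusted p = 0.00686). Dusp1 shares 11 exon bases with Ergic1 on the opposite strand in GENCODE M21, and Ergic1 differed by 0.01 on the log2 scale (edgeR adjusted p = 0.970).

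Other measures of the libraries moved with genotype as well. Over the 10 mesenchyme markers the summed level ran from 72.0 to 122 CPM in ISL1CKO and from 38.6 to 84.5 CPM in controls. Tbx18 made up much of this, at 24.6 to 51.4 CPM against 0 to 3.73 CPM, while Pou3f4 ran the other way, at 4.01 to 42.1 CPM against 34.7 to 77.9 CPM. The collagen gene Col3a1 was higher without overlap, at 6.42 to 28.2 CPM against 0.748 to 5.39 CPM (log2 ratio 2.40, edgeR adjusted p = 0.00241), and Tbx18 also passed. Col1a2 had a log2 ratio of 1.83 (edgeR adjusted p = 0.0602). Twist1 was at most 0.0776 CPM in ISL1CKO and 0.250 to 2.37 CPM in controls. Prrx1, which did not pass the filter on low counts, ran from 0 to 7.92 CPM in ISL1CKO (median 4.73). In controls it ran from 0.0834 to 0.665 CPM (median 0.306). Col1a1, Pdgfra, Dcn and Lum were at most 2.99 CPM in any library, and none of the 10 was at 0 in every library. The mitochondrial share of counts was 0.845% to 1.02% in ISL1CKO and 1.05% to 1.65% in controls. Within groups, Dusp1 had a Pearson's r of -0.30 with the mesenchyme level (Spearman's rho -0.35) and of -0.31 with the mitochondrial share (Spearman's rho -0.24; permutation p = 0.420 and 0.343, adjusted p = 0.819 and 0.815 over 70 relations). Their part in the difference between groups was not tested.

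Among the 6 tested members, the AP-1 gene Junb (ENSMUSG00000052837, chromosome 8, 84974484 to 84978718) had the largest fold change, but its groups overlapped through a single control. Its lowest, median and highest values were 10.9, 12.7 and 19.9 CPM in ISL1CKO and 0.667, 5.70 and 14.9 CPM in controls. Control 6 lay above 5 of the 6 ISL1CKO libraries, and control 3 was lowest with 8 counts. Group means came to 13.6 ± 3.23 and 6.38 ± 4.79 CPM (SD, n = 6), a log2 ratio of 1.09 with an SE of 0.47 (edgeR adjusted p = 0.172). Without control 6 it was 1.54 and passed (edgeR adjusted p = 0.0480), and limma-voom with sample weights gave 1.27 (adjusted p = 0.0455). Junb shares 173 exon bases, 7.52% of its exon length, with the opposite-strand gene Prdx2, which averaged 1004 CPM in ISL1CKO and 937 CPM in controls. The use of strand is not given in the sources used here, so reads in that stretch cannot be assigned with certainty.

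Jun (ENSMUSG00000052684, chromosome 4, 95049034 to 95052222), the main partner of Fos proteins, ran from 179 to 245 CPM in ISL1CKO (median 242) and from 111.5 to 234 CPM in controls (median 183). In all, 5 of the ISL1CKO libraries lay between 216 and 245 CPM, and control 1 was lowest. The log2 ratio was 0.32 with an SE of 0.15 and a 95% interval of -0.00 to 0.64 (edgeR adjusted p = 0.221). Without control 1 and control 3, the shallowest libraries, it was 0.14 (edgeR adjusted p = 0.564). Jun shares 232 exon bases with the opposite-strand gene Junos, which averaged 2.05 CPM in ISL1CKO and 1.71 CPM in controls.

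Fos (ENSMUSG00000021250, chromosome 12, 85473890 to 85477273) had more than 3 counts in 8 of 12 libraries and 0 in control 1, where 3 counts would be 0.249 CPM. Its lowest, median and highest values were 0.224, 0.415 and 2.71 CPM in ISL1CKO and 0, 0.468 and 1.83 CPM in controls. The highest, in ISL1CKO 3, was 36 counts. Fosb, its close relative, had more than 3 counts only in control 3, with 5, and 0 in 4 libraries. At this depth no difference was detectable for either gene: with no filter, log2 ratios were 0.50 ± 0.91 (standard error) for Fos and -0.06 ± 1.01 for Fosb (edgeR adjusted p = 0.846 and 0.991).

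Atf3 (ENSMUSG00000026628, chromosome 1, 191170296 to 191218039), an injury-induced partner of Jun, was split between libraries rather than between groups. It had 22 to 60 counts in 5 libraries (control 3, 4 and 6, ISL1CKO 4 and 6) and at most 1 count in the other 7. In CPM the 5 libraries ran from 1.61 to 4.57. The group means were 1.12 ± 1.85 CPM in ISL1CKO and 1.77 ± 2.15 CPM in controls (SD, n = 6). With no filter its log2 ratio was -0.65 with an SE of 1.29 (edgeR adjusted p = 0.860).

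Egr1 (ENSMUSG00000038418, chromosome 18, 34859823 to 34864984), a zinc-finger factor induced by ERK signalling, ran from 0.0747 to 10.5 CPM in ISL1CKO (median 0.463) and from 0.238 to 4.89 CPM in controls (median 1.53). The ISL1CKO median was thus lower and the mean, 2.57 ± 4.07 against 1.79 ± 1.68 CPM (SD, n = 6), higher, since ISL1CKO 2 alone held 135 counts. The log2 ratio of 0.52 (SE 0.97, edgeR adjusted p = 0.799) became -0.86 without ISL1CKO 2 (edgeR adjusted p = 0.646). Nr4a1 (ENSMUSG00000023034, chromosome 15, 101254269 to 101274795), a nuclear receptor induced by calcium, ran from 1.6 to 8.77 CPM and from 1.41 to 6.58 CPM, with medians of 3.43 and 3.39 CPM. Its groups overlapped almost fully, with a log2 ratio of 0.10 and an SE of 0.51 (edgeR adjusted p = 0.933). Without ISL1CKO 2 it was -0.29 (edgeR adjusted p = 0.795).

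Ier2 (ENSMUSG00000053560, chromosome 8, 84661331 to 84662852), an early gene whose product regulates transcription, had the smallest ratio of highest to lowest library among the 6 tested genes, 1.87. It ran from 55.7 to 86.0 CPM in ISL1CKO (median 73.0) and from 52.5 to 98.3 CPM in controls (median 71.6). The log2 ratio was -0.01 with a 95% interval of -0.35 to 0.32 (edgeR adjusted p = 0.971), which does not reach the 0.80 of Dusp1.

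Hspa1a (ENSMUSG00000091971, chromosome 17, 34969190 to 34972156) had more than 3 counts in 4 libraries. Control 3 held 28 counts (2.34 CPM) and ISL1CKO 4 held 25 (1.87 CPM), and the other 10 held at most 6. Its near-identical neighbour Hspa1b was at most 0.501 CPM. Of the 75-base windows of Hspa1a transcripts, 52.7% also occur in Hspa1b, so reads may have been split or dropped and both levels are uncertain. Hspa1a also shares 564 exon bases, 19.0% of its exon length, with the opposite-strand gene Gm20481. No window of the other 9 genes occurred in a transcript of another gene. With no filter the log2 ratio of Hspa1a was -0.06 with an SE of 1.26 (edgeR adjusted p = 0.992).

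**Figure D2:**
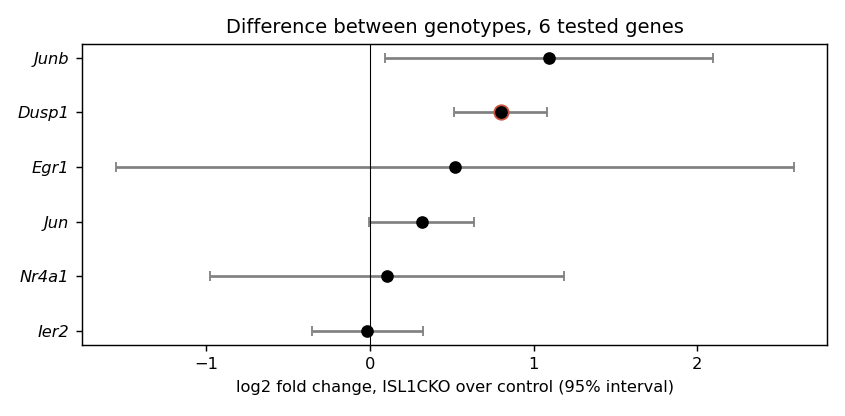
Log2 ratio of ISL1CKO over control for the 6 tested genes, with 95% intervals from edgeR's quasi-likelihood fit (12 libraries). Only Dusp1 (red outline, 0.80) passed an adjusted p of 0.05; the interval of Egr1 (-1.55 to 2.59) is the widest and that of Ier2 (-0.35 to 0.32) is narrow.

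The genes differed in how much they varied between libraries of a group. The biological coefficient of variation, the spread beyond counting noise that edgeR estimates, was 0.17 for Dusp1, 0.19 for Jun and 0.20 for Ier2. It was 0.56 for Junb, 0.61 for Nr4a1 and 1.11 for Egr1. Variation falls with level, so each was also set against the 500 tested genes nearest to it in level. Egr1 was more variable than 93.2% of these, Junb than 90.0%, Jun than 88.6%, Dusp1 than 75.2%, Ier2 than 71.6% and Nr4a1 than 56.0%.

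Whether the genes were high in the same libraries was examined after the mean of each genotype was removed. No joint rise and fall of the 10 genes as a whole was seen. Many values of Fos, Fosb, Atf3 and Hspa1a lay near the floor, where counting noise limits what r can show. Among the 6 tested genes, r ran from -0.63 (Ier2 and Dusp1) to 0.61 (Jun and Nr4a1). Of the 45 pairs, 23 had a positive and 22 a negative Pearson's r, with a median of 0.04 and a range of -0.76 to 0.71. No pair passed after adjustment over the 45 pairs (0 with Pearson's r, smallest adjusted p = 0.403, and 0 with Spearman's rho, by permutation). At an unadjusted permutation p under 0.05 there were 5 pairs with Pearson's r and 3 with Spearman's rho.

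**Figure D3:**
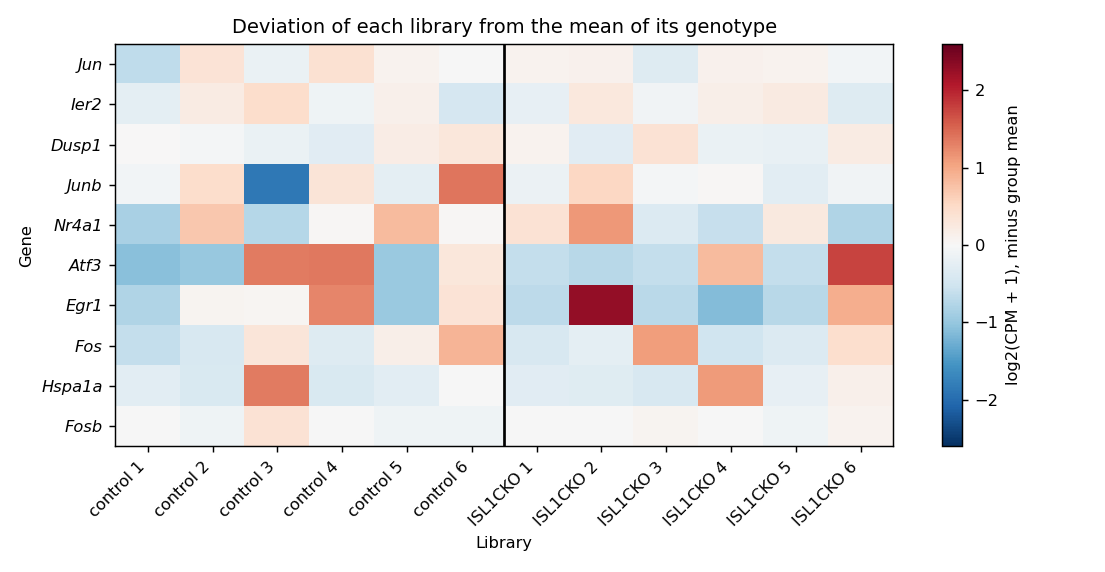
Deviation of each library from the mean of its own genotype, in log2(CPM + 1), for the 10 genes (rows) in 6 control and 6 ISL1CKO libraries (columns). The strongest colours fall in different libraries for different genes: Egr1 is highest in ISL1CKO 2, Atf3 in ISL1CKO 6, Fos in ISL1CKO 3 and Hspa1a in control 3.

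The highest positive r was that of Fos and Dusp1 at 0.71 (Spearman's rho 0.52; permutation p = 0.0157 and 0.105, adjusted p = 0.403). ISL1CKO 3 had the highest value of both genes, and r fell to 0.37 without ISL1CKO 3 and control 6. Jun and Nr4a1 had an r of 0.61 (rho 0.69; permutation p = 0.0345 and 0.0256, adjusted p = 0.403), which was 0.50 without control 1 and ISL1CKO 3. Atf3 and Hspa1a had an r of 0.60 (rho 0.41; permutation p = 0.0459 and 0.198, adjusted p = 0.413). Ier2 and Dusp1 ran in opposite directions, with an r of -0.63 (rho -0.64; permutation p = 0.0358 and 0.0328, adjusted p = 0.403). Jun, Junb, Egr1 and Nr4a1 were all positive with each other, at 0.28 to 0.61, and so were Fos, Fosb, Atf3 and Hspa1a, at 0.04 to 0.65. The 0.65 is that of Fosb and Hspa1a (rho 0.13), and fell to 0.09 without control 3 and ISL1CKO 5. Neither gene passed the filter on low counts, nor did Fos and Atf3. Both sets were noticed after the values were seen and get no test, and their single pairs did not pass adjustment. The dimer partners Fos and Jun had an r of -0.25, and Fos and Junb one of 0.06.

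ISL1CKO 2 held the highest level of 4 genes (Jun, Junb, Egr1 and Nr4a1), control 3 of 3 (Ier2, Hspa1a and Fosb), ISL1CKO 3 of 2 (Fos and Dusp1) and ISL1CKO 6 of 1 (Atf3). Control 3, which led for Ier2, Hspa1a and Fosb, was the lowest of all 12 for Junb, at 0.667 CPM. The same library was the shallowest, with the highest mitochondrial share at 1.65%. ISL1CKO 2 had the highest summed level of Schwann cell and satellite glia markers, 482.5 CPM, against 16.8 to 392 CPM in the other ISL1CKO libraries. It also had the highest sums of any library for mesenchyme markers, 121.9 CPM, and for otic epithelium markers, 27.4 CPM. The part of these measures in the levels of the 10 genes was not tested beyond the correlations given here.

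**Figure D4:**
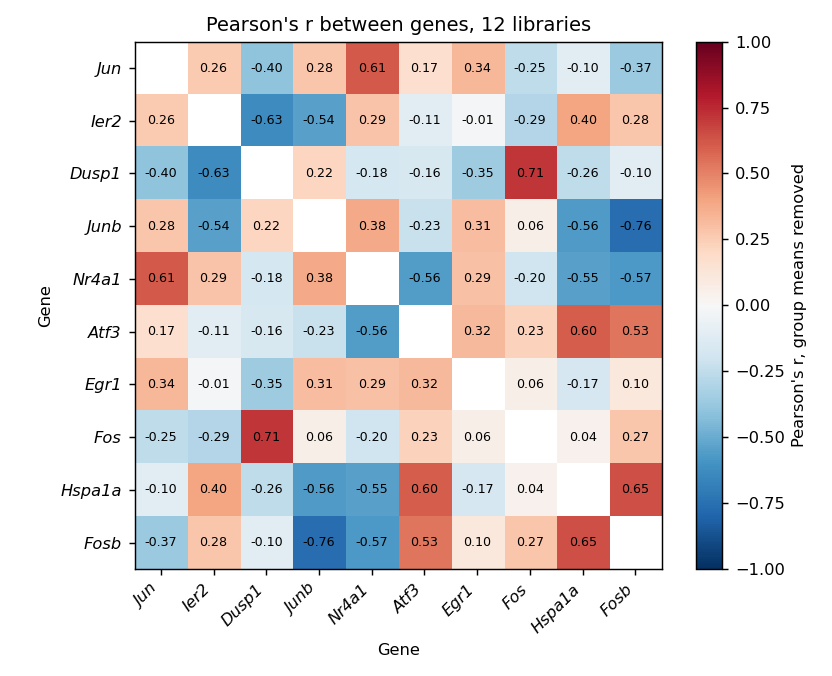
Pearson's r between each pair of the 10 genes over 12 libraries, on log2(CPM + 1) with the mean of each genotype removed; red is positive, blue is negative. The 45 values range from -0.76 (Fosb and Junb) to 0.71 (Fos and Dusp1); Jun, Junb, Egr1 and Nr4a1 are all positive with each other (0.28 to 0.61), and none of the 45 passed adjustment.

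Each of the 10 genes was also set against 7 measures of the libraries: total counts, mitochondrial share and the mean levels of macrophage, Schwann cell and satellite glia, mesenchyme, endothelium and erythroid markers. Of these 70 relations, 1 passed, that of Nr4a1 with the mesenchyme list (Pearson's r = 0.85, permutation p = 4.2e-04, adjusted p = 0.0294; Spearman's rho = 0.81, permutation p = 0.00244). It was 0.96 within ISL1CKO, 0.71 within controls and 0.93 without control 1 and ISL1CKO 2. No relation passed when any of the 6 ISL1CKO libraries was left out (smallest adjusted p from 0.0588 to 0.0990). The r of Junb with the mitochondrial share was -0.84 (permutation p = 0.0228, adjusted p = 0.262) and fell to -0.24 without control 3 and control 6. In ISL1CKO 2, where the 12 macrophage markers summed to 2.17 CPM, Jun, Dusp1 and Ier2 stood at 245, 149 and 86.0 CPM. In ISL1CKO 4, where the markers summed to 796 CPM, the same 3 genes stood at 243, 162 and 79.6 CPM. From ISL1CKO 2 to ISL1CKO 4, Egr1 went from 10.5 to 0.0747 CPM and Nr4a1 from 8.77 to 1.94 CPM. Control 1, the control with the highest macrophage sum (409 CPM), had the lowest Jun of any library, 111.5 CPM. The r of Nr4a1 with the macrophage level was -0.72 (permutation p = 0.0147, adjusted p = 0.262). Its Spearman's rho was -0.78 (permutation p = 0.00696).

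Among the 9872 other tested genes whose log2(CPM + 1) averaged 3 or more, the highest mean r to the 6 tested members was only 0.41, for Sec23ip, a component of vesicle export. Rcn1, Rpa1, Tex261, Ubl4a, Spa17, Baiap2, Pitrm1 and Ubr2 were also among the highest, at 0.37 to 0.41. These are descriptions over 12 libraries that share their depth and sorting. The genes most like Fos were Znrd1, Tmem11, Atg101, Brd3os and Anapc11, with an r of 0.83 to 0.86, and none of them is on the lists used here.

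The wider response was read from 8 lists of 130 genes, of which 126 are in the table and 102 were tested. Of these, 16 passed, or 15.7%, against 10.2% of all tested genes, 9 higher and 7 lower. Their median log2 ratio was 0.06, against 0.00 for all tested genes. The calls were scattered over the lists and ran in both directions. The lists were chosen with earlier results of these data known, so no share below can be read as an excess over all tested genes.

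Among the kinases and factors that switch early genes on, 2 of 20 passed, both lower. This is 10%, near the 10.2% of all tested genes. Mapk3, which encodes the kinase ERK1, fell from 194 ± 7.46 to 108 ± 20.9 CPM (SD, n = 6), a log2 ratio of -0.84 with an SE of 0.11 (edgeR adjusted p = 1.9e-04). Its groups did not overlap, at 82.0 to 133 CPM against 183.5 to 205 CPM. Map3k13, a stress kinase upstream of JNK, fell by 0.73 on the log2 scale (edgeR adjusted p = 0.00239). Creb1, whose product binds the cAMP response element, was at 131 to 226 CPM.

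Of the other AP-1 and related genes, 1 of 5 passed (20%, against 10.2% of all tested genes). Atf2, a partner of Jun, rose from 177 ± 28.7 to 240.5 ± 19.7 CPM (SD, n = 6), a log2 ratio of 0.44 (edgeR adjusted p = 0.0125). Jund, the constitutive member of the Jun family, ran from 11.02 to 14.2 CPM in ISL1CKO and from 9.47 to 44.8 CPM in controls, with medians of 12.65 and 10.7 CPM. Mafg was the next most abundant of this list, at 39.9 to 83.7 CPM. Among the other early transcription factors 1 of 7 passed (14.3%, against 10.2% of all tested genes). Myc, a growth regulator, fell from 89.5 ± 14.9 to 24.4 ± 8.41 CPM (SD, n = 6), a log2 ratio of -1.88 (edgeR adjusted p = 1.23e-04), with no overlap. Klf6 was the most abundant of them, at 84.5 to 150 CPM. Nr4a2, the nearest relative of Nr4a1 that was tested, ran from 0.896 to 13.5 CPM in ISL1CKO and from 0.582 to 3.29 CPM in controls, with a log2 ratio of 2.15 (edgeR adjusted p = 0.0547). Egr2, Egr3, Egr4 and Nr4a3, close relatives of Egr1 and Nr4a1, had too few counts to be tested, with at most 3.28 CPM in any library.

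Dusp1 is part of the feedback that ends the early response, and 4 of 16 other feedback genes passed, 3 higher and 1 lower. This is 25%, against 10.2% of all tested genes. Btg1, an antiproliferative gene, fell from 105.5 ± 15.7 to 32.3 ± 4.81 CPM (SD, n = 6), a log2 ratio of -1.71 (edgeR adjusted p = 7.39e-07). Its relatives Btg2 and Tob1 ran the other way, with log2 ratios of 0.68 and 0.43 (edgeR adjusted p = 0.0244 and 0.0496), and Zfp36l1, an RNA decay factor, one of 2.45 (edgeR adjusted p = 0.00435). Dusp6, which acts on ERK, had a log2 ratio of -0.90 with an SE of 0.39 (edgeR adjusted p = 0.176) and overlapping groups, and passed without ISL1CKO 1 at -1.21 (edgeR adjusted p = 0.0473).

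Of the neuronal activity genes, 3 of 12 passed (25%, against 10.2% of all tested genes). Nrn1, which encodes the activity-regulated protein neuritin, rose from 39.3 ± 6.38 to 143 ± 30.1 CPM (SD, n = 6), a log2 ratio of 1.87 (edgeR adjusted p = 1.54e-06), with no overlap. Scg2, a secretory granule gene, had a log2 ratio of 2.61 (edgeR adjusted p = 0.0367). Gadd45g fell by 0.69 on the log2 scale (edgeR adjusted p = 0.00446). Plk2 and Rheb were the most abundant, at 292 to 887 CPM and 209 to 289 CPM. Arc, the classic dendritic early gene, was at most 9.47 CPM in any library, and Npas4, induced by neuronal firing, at most 2.92 CPM.

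**Figure D5:**
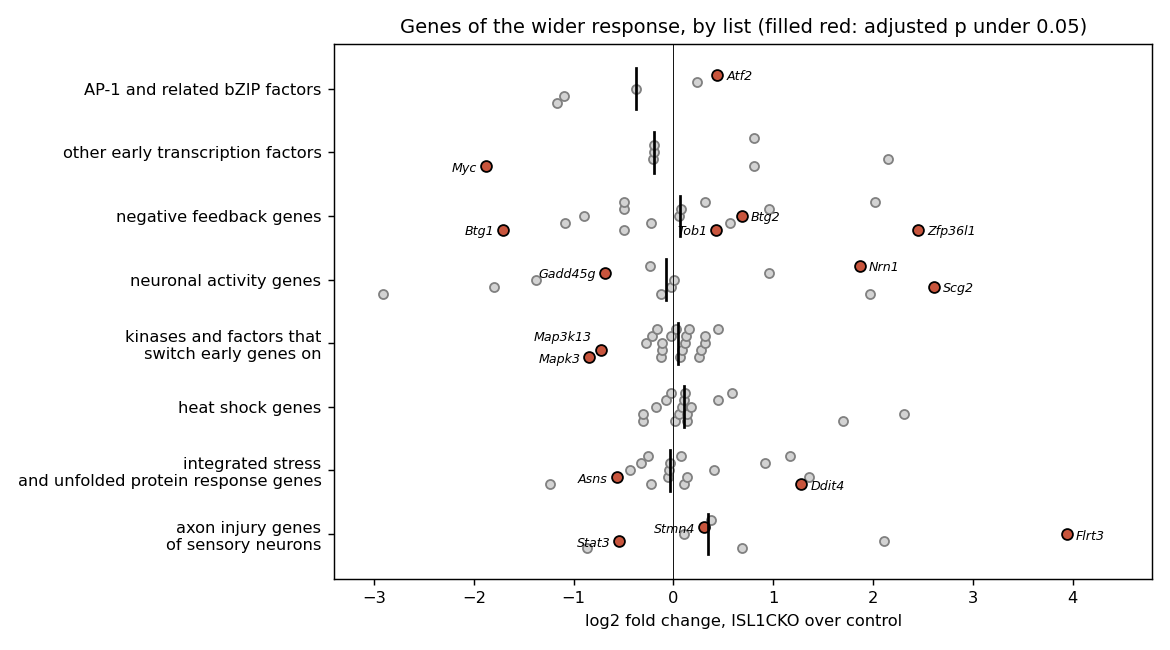
Log2 ratio of ISL1CKO over control for the 102 tested genes of 8 lists (rows). Each point is a gene, red points passed an edgeR adjusted p of 0.05, and black bars are list medians. The 16 red points lie on both sides of 0, and the heat shock row has none.

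No heat shock gene of 17 tested passed in edgeR's test, with 5 at an unadjusted p under 0.05. DESeq2 called 3 of them and limma-voom 1. The constitutive chaperones were abundant: Hspa8 ran from 1098 to 2336 CPM and Hsp90ab1 from 1807 to 3128 CPM. Hsp90ab1 had a log2 ratio of -0.31 with an SE of 0.10 (edgeR adjusted p = 0.0634), and passed without control 2 or without ISL1CKO 3 (edgeR adjusted p = 0.0444 and 0.0154) and in 4 of the 11 other settings. The inducible genes Hspb1 and Hspa1b were at most 1.02 and 0.501 CPM, where the level of Hspa1b is uncertain. Bag3 and Cryab were also low, at most 3.56 and 3.65 CPM. Other genes of this list were not: Hsp90aa1 ran from 588 to 917 CPM, Hsph1 from 74.6 to 183 CPM and Dnajb1 from 54.2 to 136 CPM.

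Among integrated stress and unfolded protein response genes, 2 of 17 passed (11.8%, near the 10.2% of all tested genes). Ddit4, an inhibitor of mTOR signalling, rose from 13.97 ± 2.255 to 34.0 ± 13.0 CPM (SD, n = 6; log2 ratio 1.28, edgeR adjusted p = 0.00849). Asns, the asparagine synthetase, had a log2 ratio of -0.57 (edgeR adjusted p = 0.0236). The chaperone Hspa5 ran from 606 to 1123 CPM. Hsp90b1 had a log2 ratio of -0.25 (edgeR adjusted p = 0.0552), and passed without control 1 or without control 3 (edgeR adjusted p = 0.0175 and 0.0389) and in 5 of the 11 other settings, DESeq2 and limma-voom among them.

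Of the axon injury genes, 3 of 8 passed (37.5%, against 10.2% of all tested genes). Flrt3, an adhesion gene induced in injured sensory neurons, rose from 9.59 ± 6.05 to 148 ± 35.3 CPM (SD, n = 6), a log2 ratio of 3.94 with an SE of 0.33 (edgeR adjusted p = 2.2e-06). Stmn4 had a log2 ratio of 0.31 and Stat3 one of -0.54 (edgeR adjusted p = 0.0255 and 0.0302). Gap43 and Sox11, growth-associated genes, were abundant at 1758 to 2887 CPM and 1392 to 3666 CPM. Their log2 ratios were 0.11 and 0.38 (edgeR adjusted p = 0.580 and 0.270), and Sox11 passed without control 2, at 0.65 (edgeR adjusted p = 8.4e-04), and with the 2 marker covariates, at 0.80 (edgeR adjusted p = 0.0264).

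Of the 16 calls, 7 (Myc, Btg1, Gadd45g, Nrn1, Mapk3, Map3k13 and Flrt3) held in all 12 fits that each left out 1 library and in all 11 other settings. Single libraries ended 6 of the others: Btg2 (without control 3 or ISL1CKO 2, 5 or 6), Tob1 (without any library but control 2 or ISL1CKO 3), Scg2 (without control 1, 4, 5 or 6 or ISL1CKO 1, 3 or 5), Asns (without control 2 or ISL1CKO 4), Stmn4 (without control 1, 4, 5 or 6 or ISL1CKO 4) and Stat3 (without control 2 or 4 or ISL1CKO 5). The edgeR adjusted p without these libraries stayed at or below 0.0608 for Btg2, 0.110 for Tob1, 0.0824 for Scg2, 0.0546 for Asns, 0.0659 for Stmn4 and 0.0612 for Stat3. Without ISL1CKO 2, 3 and 5, calls ended for Atf2, Btg2, Scg2, Stmn4 and Stat3 (edgeR adjusted p = 0.188, 0.145, 0.195, 0.214 and 0.138). Tob1 did not pass in 7 of the 11 other settings, with an adjusted p of up to 0.182, and Asns did not with the marker covariates (edgeR adjusted p = 0.133). In the model with macrophage and Schwann cell markers, Zfp36l1 had a log2 ratio of 1.504 (edgeR adjusted p = 0.0899), Ddit4 one of 1.11 (edgeR adjusted p = 0.0978) and Atf2 one of 0.44 (edgeR adjusted p = 0.0765). In the annotation Nrn1, Map3k13, Zfp36l1 and Stat3 share exon bases with a gene on the opposite strand, and Atf2 and Map3k13 with one on the same strand, so their counts are uncertain.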

How the data were processed

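Spiral ganglion neurons were profiled in 12 libraries, 6 for each genotype. The authors deposited whole-number counts per Ensembl gene, not normalized, and per the submitters' processing notes the tools were cutadapt 1.18, Bowtie 1.2.2, STAR 2.7.0c and featureCounts, with genome build GRCm38.p6. Their settings, the annotation and the use of strand are not given in the sources used here. Each column was tied to its sample by the group and number in its name. Symbols were given to 25620 identifiers, and coordinates and exon lengths are those of GENCODE M21 (GRCm38), and the counting may have used another annotation.

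Genes were filtered with filterByExpr (minimum count 10), scaled with TMM and tested with edgeR 4.0.16 under R 4.3.3 (robust quasi-likelihood test, no covariate, Benjamini-Hochberg adjustment over 14813 genes, threshold 0.05). A standard error (SE) is the log2 fold change, called log2 ratio, divided by the square root of F. Levels are CPM after TMM scaling. Correlations used log2(CPM + 1) centred on each group, with 100000 shuffles of libraries within groups, 2-sided. Alternatives used DESeq2 1.42.0 and limma 3.58.1. All tests were first checked on simulated data.

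The members and lists were chosen with earlier results of these data known. Genes named were the members, up to 4 genes past the threshold with the smallest p and the 2 most abundant per list, and the genes with the highest r. Dusp6, Jund, the Egr and Nr4a relatives, Arc, Npas4, Hspb1 and Hspa1b, and overlap partners were added after values were seen. So were Hsp90aa1, Hsph1, Dnajb1, Bag3 and Cryab. No pair of libraries of a group agreed within sampling noise. Some listed markers, among them most haemoglobin genes, and the promoters of Egr1 and Ier2 were not analysed here. Some genes that the naming rule selected are not reported here.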

Additional observations from a re-analysis of the deposited data

Results flagged for a closer look

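For 5 of 20 combinations of gene and genotype, a single library was far from the remaining 5. The rule flags about 1 of 20 by chance only where values are normally distributed. It was applied to CPM, some from few counts, so that rate does not hold here and no excess over chance can be read. ISL1CKO 2 was flagged for Junb, with 19.9 CPM (257 counts) against 10.9 to 13.6 CPM in the other ISL1CKO libraries, and for Egr1, with 10.5 CPM (135 counts) against 0.0747 to 3.51 CPM. Control 3 was flagged for Hspa1a, with 2.34 CPM (28 counts) against 0 to 0.293 CPM in the other controls, and for Fosb, with 0.417 CPM from only 5 counts against 0 to 0.0831 CPM. ISL1CKO 4 was flagged for Hspa1a, with 1.87 CPM (25 counts) against 0 to 0.457 CPM.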

How the results depend on the processing

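Dusp1 was the only member called under each setting other than limma-voom with sample weights, which called 2 with Junb added; with 1 library left out, 1 to 2 were called. All genes called numbered 1511, and fell to 931 with covariates for macrophage and Schwann cell markers and to 767 without the 3 libraries that held both Xist and Y-linked RNA (1178 to 1517 with 1 library left out). The 16 list genes called became 27 with the DESeq2 Wald test and 10 with those covariates. The 1 relation to a library measure became 0 with macrophage and Schwann cell levels removed and 0 without the 3 libraries, and 0 to 2 with 1 library left out. Values near 0 changed sign. Egr1 was at -0.30 with limma-voom, -0.13 with the replicate block, -0.41 without the 3 libraries, and -0.86 to 1.12 with 1 library left out. Ier2 was at 0.058 with limma-voom, 0.11 with the covariates, 0.0472 without the 2 shallowest libraries (an alternative chosen after seeing the data), and -0.094 to 0.0838 with 1 library left out. Nr4a1 was at -0.42 without the 3 libraries, -0.28 without the 2 shallowest, and -0.29 to 0.33 with 1 library left out. The cause was not tested. Same-numbered libraries deviated together with an r of only -0.06 to 0.16, and 2 of 6 correlated best with their own number, so the numbers do not pair them; the replicate block called 1450 genes, 1 member (Dusp1) and 19 list genes. Depth limits Fos, Fosb, Atf3 and Hspa1a, which had too few counts for a test.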

Other observations

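The split of Atf3 was set beside the sex-linked transcripts after its values were seen. Of the 12 libraries, 3 held Xist (185 to 398.5 CPM) with almost no Y-linked RNA (a mean of 0.267 to 0.426 CPM): control 3, control 4 and ISL1CKO 6. These held the 3 highest levels of Atf3, at 4.42, 4.45 and 4.57 CPM. Among the 6 libraries with Y-linked RNA and at most 0.373 CPM of Xist, Atf3 was at 1.61 CPM in control 6 and 1.94 CPM in ISL1CKO 4 and at most 0.0793 CPM in the other 4. The 3 libraries with transcripts of both sexes had at most 0.0753 CPM. No test was made of this pattern.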
